A study of Mus musculus with 13 samples.

Results

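Among adult muscle proprioceptors sorted onto the same 3 plates, the 38 neurons of cluster 3, a putative group II muscle spindle population, were compared with the 38 neurons of clusters 1 and 5, which correspond to group Ia spindle afferents and group Ib tendon organ afferents and are called group I here. Cluster membership was taken from the deposited annotation. The plates are adult replicates 3, 4 and 5. They held 18, 13 and 7 neurons of cluster 3, with 15, 17 and 6 of group I. These are 76 of the 586 neurons kept in the whole series of 13 plates. A further 27 kept neurons of these 3 plates had no numbered cluster and were left out. All were dorsal root ganglion neurons of *PV:Cre+/-;Rx3:Flp+/-;Ai65+/-* mice of either sex, aged at least 56 days, in which tdTomato marks cells that have expressed both parvalbumin and Runx3. A small number of cutaneous afferents can carry the same label. Genotype and age were shared by both groups.

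Group Ia and group II endings both lie in the muscle spindle. Group Ia afferents wrap the centre of the intrafusal fibres, signal the speed as well as the extent of stretch and contact motor neurons directly, whereas group II afferents have thinner, more slowly conducting axons, end beside the centre of the spindle and report mostly its static length. Group Ib afferents innervate Golgi tendon organs and report muscle force. How such neurons fire depends on their potassium, sodium and calcium channels and the proteins that bind them, and axon calibre depends on neurofilaments.

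*Nxph1* and *Kcnip2* marked cluster 3 on each plate, while *Svop*, the third gene proposed as its marker, did not mark most of its neurons. *Nxph1* (GRCm38, chr6:8948614-9249619) encodes neurexophilin 1, a secreted ligand of α-neurexins, and *Kcnip2* (chr19:45792346-45816422) encodes KChIP2, a calcium-binding auxiliary subunit of Kv4 potassium channels. The RefSeq promoters of both (GRCm38.p6, from 250 bases before to 50 bases after the start) are shown because these genes carry the contrast, with each GC box (GGGCGG, or CCGCCC on the other strand) in capitals. Both windows lie inside the gene intervals above, so the start used is not the outer end of the interval.
Nxph1, plus strand, chr6:8949769-8950068: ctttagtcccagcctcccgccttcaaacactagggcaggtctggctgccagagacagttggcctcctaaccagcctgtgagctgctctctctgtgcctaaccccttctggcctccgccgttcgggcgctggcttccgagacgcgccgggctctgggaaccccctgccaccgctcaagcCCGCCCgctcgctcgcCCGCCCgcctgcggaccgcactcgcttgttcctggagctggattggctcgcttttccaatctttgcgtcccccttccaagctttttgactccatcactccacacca
Kcnip2, minus strand, chr19:45816014-45816313: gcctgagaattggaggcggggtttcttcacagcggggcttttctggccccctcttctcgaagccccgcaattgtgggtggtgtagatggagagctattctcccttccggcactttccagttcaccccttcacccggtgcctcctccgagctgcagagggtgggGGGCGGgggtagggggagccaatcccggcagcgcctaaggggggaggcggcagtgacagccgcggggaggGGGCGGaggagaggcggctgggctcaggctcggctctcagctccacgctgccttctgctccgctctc
Each held 2 GC boxes, a motif found in 35.7% of 32851 RefSeq mouse promoters of this length. Their GC content was 64% and 67%, against a median of 52.7%.

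UMIs (unique molecular identifiers, each counting one captured transcript) were summed over the neurons of a group on a plate and given as CPM, the count scaled to a common library size. Plates were the replicates. The animals behind a plate are not named, so p-values measure the spread between plates, which may be technical. The clusters were found by the authors in these same neurons, so the tests show how far the 3 plates repeat a difference and are not independent evidence for it. Cluster 3 neurons had fewer UMIs, with means of 40020, 45101 and 33119 per neuron against 70113, 72058 and 54939 in group I, a difference of -26290 ± 4176 (SD over 3 plates). That is lower on 3 of 3 plates, with an exact paired permutation p of 0.25, two-sided, the smallest that 3 plates can give. At 10000 UMIs per neuron the number of genes was 3378, 3315 and 3373 in cluster 3 and 3470, 3409 and 3327 in group I (exact paired permutation p = 0.5). The summed depth was 231831 to 720357 UMIs in cluster 3 and 329635 to 1224994 in group I, so genes below a few CPM are not measured well. The part of the depth gap in the results was not tested beyond the values for thinned neurons and for neurons of 30000 to 60000 UMIs. That range narrowed the gap without removing it, with means of 37844, 41908 and 40449.5 UMIs in cluster 3 against 54258, 43783 and 44950 in group I, where 5, 3 and 3 neurons remained. Wells are told apart by barcode within a plate, and of 96 barcodes, 20, 8 and 9 held a kept neuron on both plates of a pair.

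Markers of other cells that a sort could include were measured alongside. The 15 satellite and Schwann cell markers summed to 4395, 4707 and 5409 CPM in cluster 3 and 4545, 4376 and 4796 CPM in group I, with *Cdh19* at 0 in cluster 3. None of the 5 tested was called, whereas among neurons of 30000 to 60000 UMIs 1 of 3 tested, *Apoe*, was lower in cluster 3 (-0.79 ± 0.17, adjusted p 0.0173). The 10 nociceptor markers summed to 1.39, 3.41 and 25.9 CPM against 0.951, 1.63 and 27.3 CPM, with *Scn10a* at 0 in both groups. The 8 markers of cutaneous mechanoreceptors summed to 31.9, 32.4 and 30.2 CPM against 72.3, 74.3 and 60.7 CPM, with *Mafa* at 0 in both, and the only one tested was *Ret*, described with the receptors. Proprioceptor markers were present in both groups. *Pvalb* stood at 2625, 2572 and 2446 CPM in cluster 3 and 2267, 2331 and 2427 CPM in group I, *Runx3* at 30.5, 25.6 and 38.8 against 27.6, 24.5 and 9.1 CPM and *Etv1* at 440.1, 421 and 457 against 504, 442 and 388 CPM, and these were not called (adjusted p 0.162, 0.552 and 0.932). The other 2 of the 5 listed, *Ntrk3* (log2 difference -0.68 ± 0.10, adjusted p 3.33e-05) and *Whrn* (log2 difference 0.63 ± 0.15, adjusted p 0.00657), were called in opposite directions and are described below.

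By edgeR's quasi-likelihood test with the plate as a block, 502 of 6682 genes tested differed at an adjusted p under 0.05, here termed called (7.51%). Of these, 259 were higher in cluster 3 (3.88%) and 243 lower (3.64%), 484 moved the same way on all 3 plates (as did 2661 of all 6682 genes tested, 39.8%), and the median log2 difference over all genes tested was -0.01. Without replicate 3, 4 or 5 the count was 264, 153 or 784, and DESeq2 called 94 and gave some low genes no adjusted p, which counts neither for nor against a call. Each of the 502 kept its sign with DESeq2, without the block and in limma on mean CPM per neuron. These fits reuse the same neurons for genes already selected by their call, so they check the processing only. Log2 differences below are cluster 3 minus group I, with their standard error. Where plate values are said not to overlap, the gene was picked for its difference. The share of all genes tested without overlap was not computed.

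*Nxph1* stood at 61.1, 68.2 and 60.4 CPM in cluster 3 on replicates 3, 4 and 5 and at 1.9, 4.9 and 9.1 CPM in group I. The groups were far apart on each plate (log2 difference 3.90 ± 0.37, adjusted p 1.12e-08). It had a UMI in 32 of 38 cluster 3 neurons (84.2%, exact binomial interval 68.7% to 94.0%, counting error only) and in 8 of 38 group I neurons (21.1%, 9.55% to 37.3%), at median depths of 35607 and 66484 UMIs. Thinned to 10000 UMIs per neuron, the shares were 50.0% and 2.63%. The highest level in a single group I neuron was 42.0 CPM, below the cluster 3 median of 61.3 CPM.

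*Kcnip2* was at 154, 129.6 and 134 CPM in cluster 3 and 47.5, 58.8 and 39.4 CPM in group I. These plate values did not overlap (log2 difference 1.50 ± 0.17, adjusted p 5.41e-07), although nearly all neurons of both groups carried the transcript (94.7% each, and 73.7% against 34.2% when thinned). At full depth *Kcnip2* therefore differed in level and not in the share of neurons with a UMI, whereas *Nxph1* differed in both, as the plot by neuron shows. No cluster 3 neuron had more than 7 UMIs of *Nxph1*, so a neuron without a UMI may still express it. *Kcnip2* stayed called in 12 of 12 alternative analyses, and *Nxph1* in 11 of the 11 that tested it.

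*Svop* (chr5:114026913-114091380) encodes SVOP, a transporter-like protein of synaptic vesicles. Its sums were 87.5, 157 and 43.1 CPM in cluster 3 and 35.2, 49.8 and 30.3 CPM in group I, higher in cluster 3 on each plate (log2 difference 1.44 ± 0.20, adjusted p 1.22e-05). Yet 2 neurons held 120 of the 165 *Svop* UMIs of cluster 3 (72.7%), one on replicate 4 with 78 UMIs (1475 CPM) and one on replicate 3 with 42 (867 CPM). The other 36 neurons summed to 31.3 CPM and reached at most 102 CPM, where group I summed to 41.4 CPM. The median neuron had 29.4 CPM in cluster 3 and 40.4 CPM in group I, and 63.2% against 84.2% of neurons had a UMI (31.6% against 26.3% when thinned). Leaving out the single replicate 4 neuron, a check added after seeing the data, lowered that plate from 157 to 26.2 CPM and the log2 difference to 0.47, and the call was lost (adjusted p 0.588). Without the block the adjusted p was 0.108, and in limma on mean CPM it was 0.0932, while the call held with DESeq2 (adjusted p 0.0481) and in neurons of 30000 to 60000 UMIs (adjusted p 0.00598). On replicate 5, which held neither of these 2 neurons, *Svop* was higher in cluster 3 than in pooled group I, as the plate values above show. It was not higher there than in cluster 1 taken alone.

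**Figure D1:**
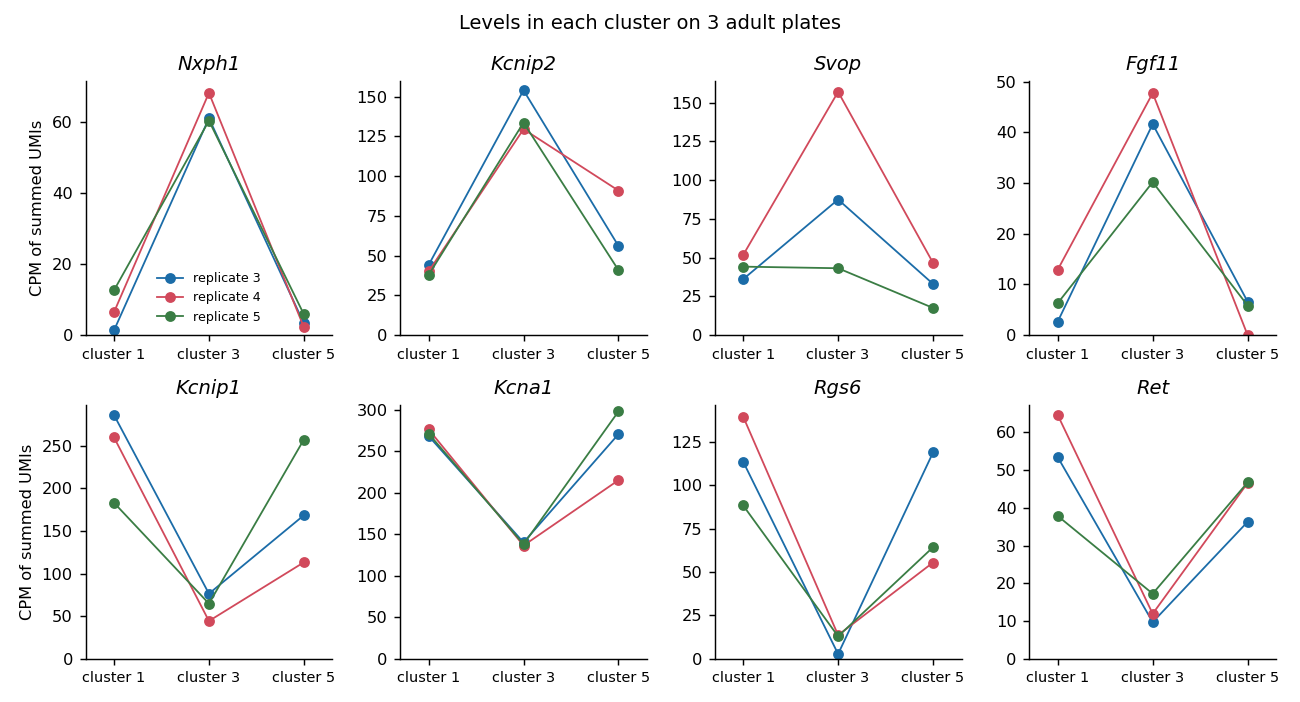
Summed level in CPM (y axis, from 0) of 8 genes in clusters 1, 3 and 5 (x axis), with 1 line per plate for adult replicates 3, 4 and 5. Nxph1, Kcnip2 and Fgf11 peaked in cluster 3 on each plate and Kcnip1, Kcna1, Rgs6 and Ret were lowest there, whereas Svop stood high in cluster 3 mainly on replicate 4.

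**Figure D2:**
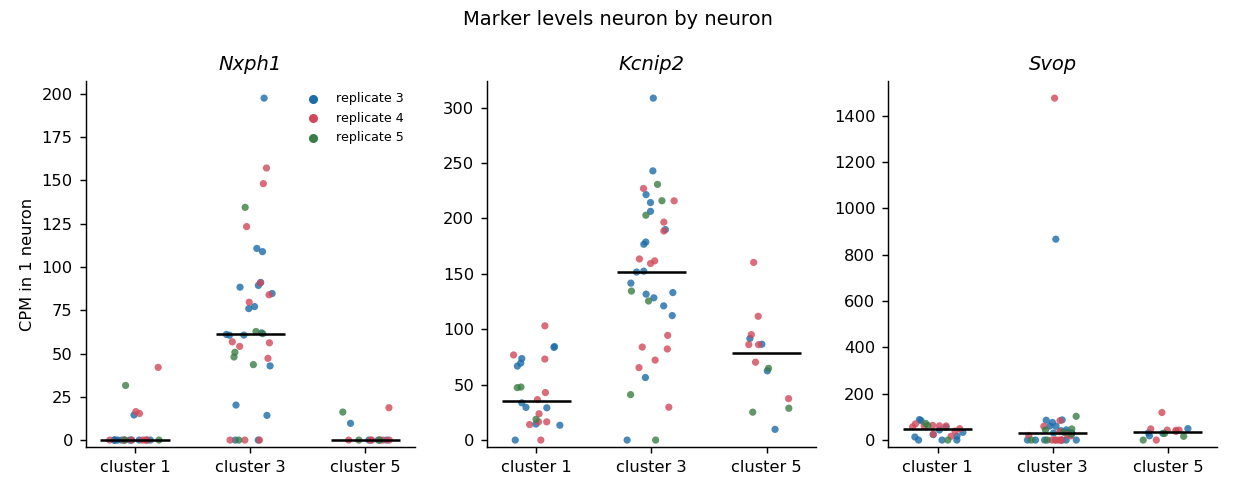
Level per neuron in CPM (y axis) of Nxph1, Kcnip2 and Svop in clusters 1, 3 and 5, with each point a neuron coloured by plate and each bar the median. The median of Nxph1 was 61.3 CPM in cluster 3 and 0 in clusters 1 and 5, and 2 neurons of cluster 3 stood apart for Svop at 1475 and 867 CPM.

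Potassium channel genes differed in both directions, and the KChIP family showed it most plainly. *Kcnip1* (chr11:33629339-33993348), which encodes KChIP1, another Kv4 auxiliary subunit, was at 76.4, 44.3 and 64.7 CPM in cluster 3 and 252, 206 and 221 CPM in group I. It was lower on all 3 plates without overlap (log2 difference -1.85 ± 0.16, adjusted p 1.29e-09), the opposite of *Kcnip2*. *Kcnip3*, at 18.0, 23.9 and 8.63 against 30.4, 17.1 and 24.3 CPM, was not called. Among 7 tested of 14 auxiliary genes listed, *Kcnip2* was higher and *Kcnip1* lower (14.3% each, against 3.88% and 3.64% of all genes).

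Of 40 voltage-gated potassium channel pore genes, 13 could be tested, 1 was higher (7.69%, against 3.88% of all genes) and 4 were lower (30.8%, against 3.64%), and the median log2 difference was -0.24. DESeq2 called 1 higher and 1 lower, and 0 of 8 tested were called in thinned neurons. *Kcna1* (chr6:126636463-126645801), encoding the low-threshold Kv1.1 channel of axons and somata, was at 140.2, 136 and 138 CPM in cluster 3 and 269, 254 and 285 CPM in group I, about even within each group and apart between them (log2 difference -0.91 ± 0.12, adjusted p 7.24e-06). *Kcna2*, encoding its partner Kv1.2, was also lower, at 251, 252 and 358 against 425, 422 and 439.9 CPM (log2 difference -0.62 ± 0.11, adjusted p 2.08e-04). *Kcnq3*, a subunit of the M-current channel, was at 6.94, 17.1 and 17.3 against 35.2, 49.8 and 33.4 CPM (log2 difference -1.65 ± 0.34, adjusted p 0.00164). *Kcnc4*, encoding the fast-inactivating Kv3.4 channel, moved the other way. It stood at 69.4, 71.6 and 82.0 CPM in cluster 3 and 26.6, 24.5 and 27.3 CPM in group I (log2 difference 1.51 ± 0.23, adjusted p 4.36e-05). *Kcnh7*, an ERG-type channel, overlapped between groups at 47.2, 35.8 and 104 against 75.1, 92.2 and 97.1 CPM and was called only narrowly (log2 difference -0.69 ± 0.21, adjusted p 0.0446, and 0.321 without the block). Of 41 K2P, inward rectifier and calcium- or sodium-activated potassium channel genes, 6 could be tested and 0 were called.

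Other channel genes gave single members. *Fgf11* (chr11:69796068-69802944), which encodes an intracellular FGF homologous factor that binds voltage-gated sodium channels, was at 41.6, 47.8 and 30.2 CPM in cluster 3 and 3.8, 8.16 and 6.07 CPM in group I. Each cluster 3 value was above each group I value (log2 difference 2.82 ± 0.36, adjusted p 2.80e-06). Its relative *Fgf12* was slightly lower (-0.35 ± 0.11, adjusted p 0.0496) and was called in 1 of 12 alternatives. Of 6 calcium channel genes tested of 25, the 2 called were lower (33.3%, against 3.64% of all genes), with 1 called by DESeq2 and 0 in thinned neurons or those of 30000 to 60000 UMIs. They were *Cacng2* (stargazin, which also traffics AMPA receptors) at 15.3, 37.5 and 25.9 against 86.5, 71.8 and 75.8 CPM (log2 difference -1.58 ± 0.27, adjusted p 1.55e-04), and the β subunit gene *Cacnb3* (-1.25 ± 0.30, adjusted p 0.00821). The stretch channel gene *Piezo2* was at 169, 135 and 177 against 137, 138 and 139.5 CPM and not called (adjusted p 0.42). Of 10 mechanotransduction genes tested, *Whrn*, encoding the scaffold whirlin, was called higher (0.63 ± 0.15, adjusted p 0.00657). That is 10.0% of the list, against 3.88% of all genes, and DESeq2, thinned neurons and neurons of 30000 to 60000 UMIs each called 0 of it.

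Receptor genes were mostly lower where they differed. *Ret* (chr6:118151748-118197744), the signalling receptor for GDNF family ligands, stood at 9.72, 11.9 and 17.3 CPM in cluster 3 and 48.5, 58.0 and 42.5 CPM in group I. The ranges were separate (log2 difference -2.07 ± 0.32, adjusted p 4.36e-05). It also marks some cutaneous mechanoreceptors, whose part in this value was not tested. *Ntrk3*, which encodes the neurotrophin-3 receptor TrkC that proprioceptors depend on, was at 309.6, 293 and 388 against 582, 478 and 498 CPM (log2 difference -0.68 ± 0.10, adjusted p 3.33e-05). Among GABA receptor genes, *Gabrg1* was lower (-1.23 ± 0.37, adjusted p 0.0369). Of 7 glutamate receptor genes tested, *Grm4*, a presynaptic metabotropic receptor, was higher (1.11 ± 0.30, adjusted p 0.0203), or 14.3% against 3.88% of all genes. Among 11 tested genes for other transmitter receptors, the serotonin receptor gene *Htr1f* was higher (0.93), and the adrenergic *Adra1b* (-1.32) and purinergic *P2rx6* (-1.15) were lower, or 9.09% and 18.2% against 3.88% and 3.64% of all genes. None of these transmitter receptor genes held its call without the block, and DESeq2, thinned neurons and neurons of 30000 to 60000 UMIs called 0 of them. Of 20 neuropeptide genes, 2 could be tested and 0 were called.

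Genes of transmitter release differed in both directions. Of 35 vesicle and release genes tested, 7 were higher (20.0%, against 3.88% of all genes) and 2 lower (5.71%, against 3.64%), with a median of 0.09 against -0.01 over all genes. *Stxbp6*, encoding the SNARE-binding protein amisyn, stood at 76.4, 63.1 and 90.6 against 20.0, 13.1 and 33.4 CPM (log2 difference 1.96 ± 0.25, adjusted p 3.48e-06). *Sv2a*, encoding a vesicle glycoprotein, was at 185, 189 and 189.8 against 118, 106 and 103 CPM (log2 difference 0.79 ± 0.13, adjusted p 1.58e-04), and *Syn2*, encoding synapsin II, at 182, 164 and 138 against 96.0, 107 and 94.0 CPM (log2 difference 0.77 ± 0.14, adjusted p 5.45e-04). The others higher were *Vamp2* (0.96), *Syt1* (0.83), *Syngr3* (0.69) and *Svop*, which rests on 2 neurons. The count was 2 higher and 1 lower with DESeq2, 1 and 1 in thinned neurons, and 2 and 2 in neurons of 30000 to 60000 UMIs. Going the other way, *Rph3a*, encoding the Rab effector rabphilin, was at 47.2, 68.2 and 121 against 263, 356 and 279 CPM (log2 difference -2.12 ± 0.17, adjusted p 2.31e-09), without overlap. *Slc17a6*, encoding the vesicular glutamate transporter VGLUT2, was lower too, at 8.33, 3.41 and 21.6 against 62.8, 49.8 and 18.2 CPM (log2 difference -2.50 ± 0.44, adjusted p 9.45e-04), although on replicate 5 it was not below group I.

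Of 10 tested genes for neurexophilins, neurexins and their partners, *Nxph1* and *Cbln2* were called, both higher (20.0%, against 3.88% of all genes). *Cbln2* encodes cerebellin 2, a secreted protein that links neurexins to postsynaptic receptors, and stood at 77.7, 97.2 and 90.6 against 15.2, 26.9 and 42.5 CPM (log2 difference 1.87 ± 0.24, adjusted p 3.17e-06). *Car10*, a carbonic anhydrase-related ligand of neurexins outside this list, was lower at 2.78, 1.71 and 4.31 against 21.9, 21.2 and 39.4 CPM (log2 difference -3.11 ± 0.54, adjusted p 2.34e-04). Of 100 cadherin and protocadherin genes, 10 could be tested, with 1 higher and 2 lower (10.0% and 20.0%, against 3.88% and 3.64% of all genes). DESeq2, thinned neurons and neurons of 30000 to 60000 UMIs each called 0 higher and 1 lower. *Pcdh10* was higher (0.80 ± 0.23, adjusted p 0.0277) and *Pcdh9* lower, at 70.8, 42.6 and 77.6 against 218, 203 and 179 CPM (log2 difference -1.72 ± 0.17, adjusted p 1.79e-08). *Pcdh17* had 0 UMIs in cluster 3 and 45 in group I, at least 8.85-fold lower against a floor of 3 counts over the group. Of 70 axon guidance genes, 9 could be tested, and the Slit receptor gene *Robo2* and the ephrin gene *Efnb2* were higher (1.03 ± 0.26, adjusted p 0.0123, and 0.93 ± 0.26, adjusted p 0.0255). That is 22.2% of the list, against 3.88% of all genes, although DESeq2, thinned neurons and neurons of 30000 to 60000 UMIs each called 0 of this list.

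**Figure D3:**
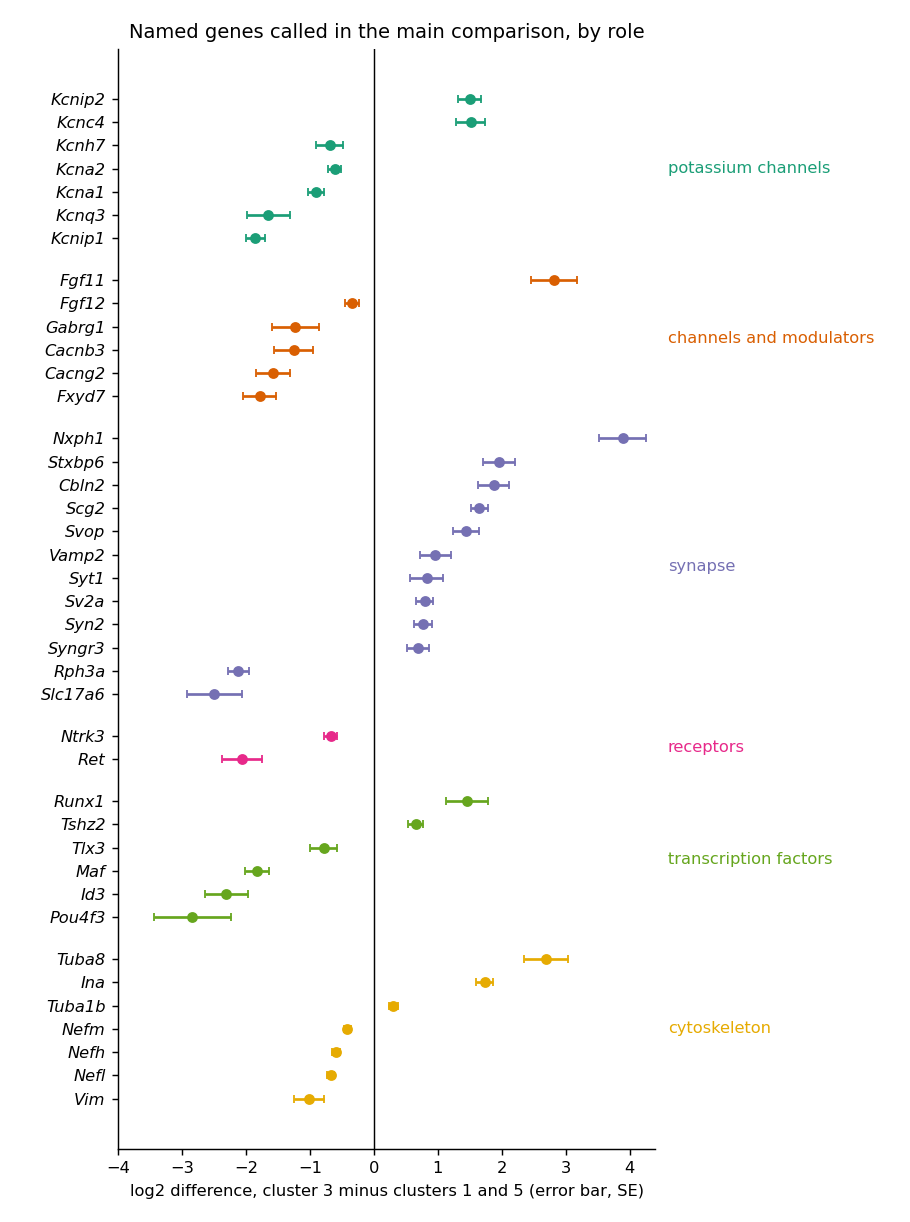
Log2 difference of cluster 3 from group I on the same plates (x axis, bars are the standard error) for named genes that were called, grouped by role. Within the potassium channel genes Kcnip2 and Kcnc4 lie to the right at 1.50 and 1.51, and Kcnip1, Kcna1, Kcna2 and Kcnq3 lie to the left.

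Of 20 tested transcription factor genes of sensory subtypes, 2 were higher (10.0%, against 3.88% of all genes) and 4 lower (20.0%, against 3.64%). DESeq2 called 0 higher and 2 lower, thinned neurons gave 0 and 1, and neurons of 30000 to 60000 UMIs 0 and 0. *Runx1*, known from nociceptor development, was at 38.9, 27.3 and 30.2 against 11.4, 10.6 and 18.2 CPM (log2 difference 1.45 ± 0.33, adjusted p 0.00507) and *Tshz2* at 228, 244 and 285 against 150.2, 145 and 209 CPM (log2 difference 0.65 ± 0.12, adjusted p 5.30e-04). *Maf*, a factor of mechanoreceptors, was at 41.6, 34.1 and 60.4 against 162, 152 and 127 CPM (log2 difference -1.83 ± 0.19, adjusted p 5.29e-08). *Id3*, an inhibitor of basic helix-loop-helix factors, and *Pou4f3*, a POU-domain factor, were lower (-2.31 ± 0.34, adjusted p 2.35e-05, and -2.84 ± 0.60, adjusted p 0.00265), as was *Tlx3* (-0.79 ± 0.22, adjusted p 0.0211). Of 39 *Hox* genes, 7 could be tested and 0 were called.

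Neurofilament genes, whose products set axon calibre, were mostly lower. Of 6 tested genes for neurofilaments and other intermediate filaments, 4 were lower (66.7%, against 3.64% of all genes) and 1 higher (16.7%, against 3.88%), with a median of -0.50. DESeq2 and thinned neurons each gave 3 lower and 1 higher, and neurons of 30000 to 60000 UMIs 2 and 0. *Nefl*, the light chain, was at 3909, 3698 and 3761 CPM in cluster 3 and 6200.5, 6321 and 5991 CPM in group I (log2 difference -0.68 ± 0.06, adjusted p 2.31e-09). *Nefh*, the heavy chain, was at 3466, 3865 and 3222 against 5895, 5760.0 and 4541 CPM (log2 difference -0.59 ± 0.06, adjusted p 7.18e-08) and *Nefm*, the medium chain, at 4943, 5091 and 4292 against 6471, 7003 and 6013 CPM (log2 difference -0.42 ± 0.06, adjusted p 1.08e-05). None of the 3 overlapped between groups, a pattern whose share over all genes was not computed. *Vim*, encoding vimentin, was lower (-1.01 ± 0.24, adjusted p 0.00644). *Ina*, encoding α-internexin, was higher, at 273, 247 and 311 against 82.7, 68.6 and 118 CPM (log2 difference 1.73 ± 0.13, adjusted p 3.35e-10). Of 11 tubulin genes tested, 4 were higher (36.4%, against 3.88% of all genes) and 0 lower (median 0.19), with 1 called by DESeq2 and 0 in thinned neurons or those of 30000 to 60000 UMIs. *Tuba8* led them at 38.9, 39.2 and 86.3 against 8.56, 4.08 and 12.1 CPM (log2 difference 2.69 ± 0.34, adjusted p 2.02e-06), and *Tuba1b* (0.30), *Tubb4a* (0.29) and *Tuba1a* (0.22) followed at high levels with small differences. Of 7 axon growth genes tested, 0 were called.

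Calcium-binding proteins included genes that mark group Ia afferents. Of 16 calcium-binding protein genes tested, 2 were higher (12.5%, against 3.88% of all genes) and 3 lower (18.8%, against 3.64%). DESeq2 called 0 higher and 2 lower, thinned neurons gave 2 and 0, and neurons of 30000 to 60000 UMIs 1 and 0. The buffer calretinin (*Calb2*) was at 2.78, 5.12 and 4.31 CPM in cluster 3 and 134, 139.6 and 206 CPM in group I (log2 difference -5.14 ± 0.30, adjusted p 7.95e-13), and calbindin (*Calb1*) at 15.3, 6.82 and 8.63 against 92.2, 81.6 and 36.4 CPM (log2 difference -2.80 ± 0.30, adjusted p 1.19e-07). *Cabp7* was lower (-1.57 ± 0.31, adjusted p 0.00105), and *Calm2*, a calmodulin gene, and *Cabp1* slightly higher (0.27 ± 0.06, adjusted p 0.00961, and 0.36 ± 0.09, adjusted p 0.0115), although *Calm2* stood at -0.017 among neurons of 30000 to 60000 UMIs, a range chosen after seeing the data. *Fxyd7*, which encodes a small regulator of ion transport, was at 12.5, 10.2 and 73.3 against 57.1, 43.3 and 194 CPM (log2 difference -1.78 ± 0.26, adjusted p 1.80e-05), with adjusted p 0.598 without the block. Both copine genes called of 3 tested (66.7%, against 3.64% of all genes lower), *Cpne4* and *Cpne6*, which encode calcium-dependent membrane-binding proteins, were lower (-2.91 ± 0.39, adjusted p 7.02e-06, and -0.997 ± 0.14, adjusted p 9.23e-06).

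Nuclear genes of oxidative phosphorylation were slightly higher where they differed. Of 79 tested, 18 were higher (22.8%, against 3.88% of all genes) and 0 lower, 65 were positive and the median log2 difference was 0.16. *Atp5j*, of the ATP synthase, was at 2638, 2625 and 2925 against 2089, 2199 and 2466 CPM (log2 difference 0.31 ± 0.06, adjusted p 0.00191) and *Ndufb10*, of complex I, at 2113, 2274 and 2273 against 1768, 1802 and 1954 CPM (log2 difference 0.30 ± 0.07, adjusted p 0.00315). *Atp5o* and *Ndufc1* were also among them (0.30 ± 0.06, adjusted p 0.00324, and 0.29 ± 0.07, adjusted p 0.00518). DESeq2 called 0 of these genes, 4 were called in neurons thinned to 10000 UMIs, and 0 of 76 tested were called among neurons of 30000 to 60000 UMIs, where the median was 0.11. Of 18 mitochondrially encoded genes tested, the ribosomal RNA gene *mt-Rnr2* was called higher (0.20 ± 0.06, adjusted p 0.034), or 5.56% against 3.88% of all genes, and 14 were positive. Of 62 ribosomal protein genes, *Rps4l* and *Rplp0* were lower (-1.04 ± 0.24, adjusted p 0.00496, and -0.35 ± 0.11, adjusted p 0.0396), or 3.23% against 3.64% of all genes, 16 were positive and the median was -0.09. DESeq2, thinned neurons and neurons of 30000 to 60000 UMIs called 0 genes of either list.

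**Figure D4:**
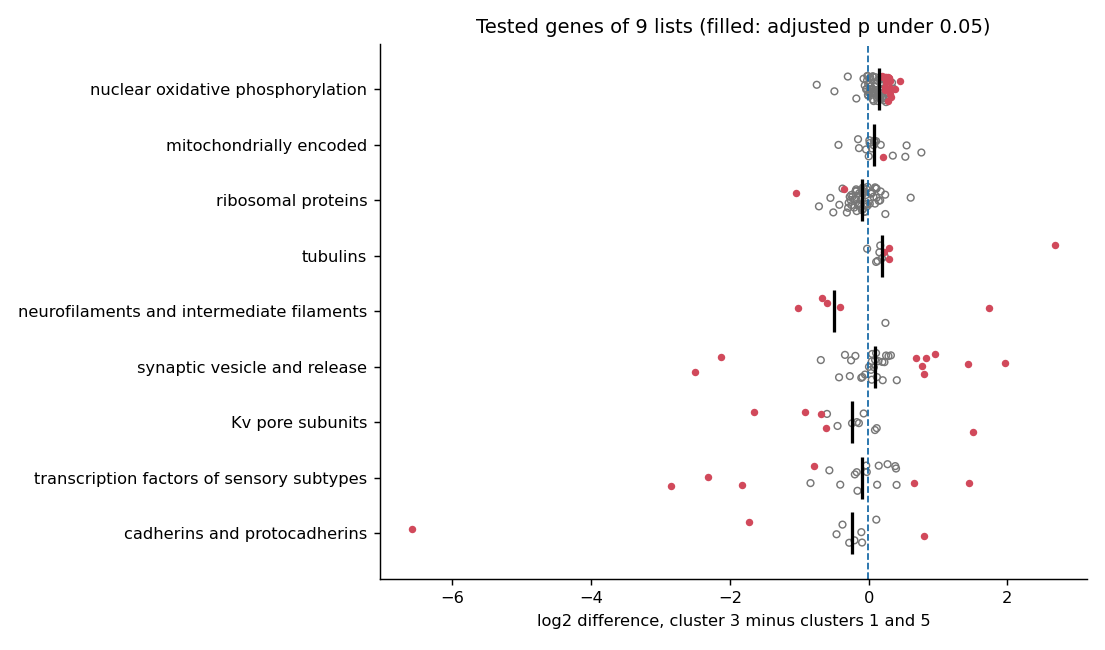
Log2 difference of cluster 3 from group I (x axis) for the tested genes of 9 lists, with filled points for an adjusted p under 0.05, a black bar at each list's median and a dashed line at the median of all genes tested (-0.01). Oxidative phosphorylation genes lie mostly right of the line and neurofilament genes mostly left, and the lowest point, Pcdh17, is a gene with 0 UMIs in cluster 3 whose plotted value depends on the prior count of the fit.

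Of 17 early response and stress genes, 9 could be tested and 5 of these were not called. *Btg2* (1.63 ± 0.29, adjusted p 2.79e-04), *Junb* (1.18 ± 0.33, adjusted p 0.0241) and *Atf3* (0.96 ± 0.29, adjusted p 0.0409) were higher (33.3% of the tested, against 3.88% of all genes) and the heat shock gene *Hsp90aa1* lower (-0.30 ± 0.07, adjusted p 0.0078). DESeq2, thinned neurons and neurons of 30000 to 60000 UMIs each called 0 of them. The whole list summed to 1677, 1496 and 1553 CPM in cluster 3 and 1826, 1697 and 1859.6 CPM in group I. *Atf3*, an injury-responsive factor, was at 44.4, 29.0 and 34.5 against 23.8, 14.7 and 18.2 CPM. The part of cell isolation in the other differences was not tested.

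Some of the 15 largest rises and 15 largest falls lay outside these lists. Predicted genes (names of Gm and digits, or ending in Rik) were skipped in that ranking, and some of them moved further than genes named here. *Gpx3*, encoding an extracellular glutathione peroxidase, was at 51.4, 30.7 and 38.8 CPM in cluster 3 and 1.9, 4.9 and 12.1 CPM in group I (log2 difference 3.10 ± 0.42, adjusted p 7.30e-06). *Adcy8*, encoding a calcium-stimulated adenylyl cyclase, was at 43.0, 37.5 and 34.5 against 7.61, 13.9 and 3.03 CPM (log2 difference 2.05 ± 0.34, adjusted p 1.38e-04), and *Scg2*, encoding the granule protein secretogranin II, at 399.8, 217 and 272 against 113, 88.2 and 81.9 CPM (log2 difference 1.65 ± 0.13, adjusted p 7.68e-10). Their plate values did not overlap. Also among the 15 rises were *Ctxn2* (2.84), *Hlx* (2.00), *Cgref1* (1.69) and *Adprhl1* (1.66), each at low levels of 18.0 to 30.2 CPM in cluster 3. *Tnrc6c* (2.16) and *Pxmp4* (1.66) rested on a single neuron each, which held 67.7% and 59.1% of their cluster 3 UMIs.

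Among the falls, *Rgs6* (chr12:82616551-83162061), encoding a regulator of G-protein signalling, was at 2.78, 13.6 and 12.9 CPM in cluster 3 and 115, 109 and 75.8 CPM in group I. The ranges were far apart (log2 difference -3.57 ± 0.32, adjusted p 3.38e-09). *Dcn*, encoding the matrix proteoglycan decorin, had 1 UMI in cluster 3 and 117 in group I, a ratio of CPM of 69.1 (counting interval 12.2 to 2751). *Thsd7a* had 2 UMIs against 67, a ratio of 19.8 (5.26 to 167). Also among the 15 falls were *Tspan33* (-2.73), *Tpbgl* (-2.68), *Mpv17l* (-2.68), the phosphatase gene *Ptpre* (-2.62), *Cryba2* (-2.60) and *Lcp2* (-2.47), each at 2.78 to 12.9 CPM in cluster 3 and 18.2 to 53.2 CPM in group I.

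Group I pools unlike neurons, and cluster 3 was therefore also set against cluster 1 (24 neurons on these plates) and cluster 5 (14 neurons), which share the cluster 3 sums. Against cluster 1, 446 of 6081 genes were called (7.33%), 256 higher (4.21%) and 190 lower (3.12%). Against cluster 5, 420 of 6081 were called (6.91%), 211 higher (3.47%) and 209 lower (3.44%).

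Several genes differed from both clusters. *Nxph1* gave log2 differences of 3.70 ± 0.43 against cluster 1 and 4.24 ± 0.55 against cluster 5 (adjusted p 1.89e-07 and 1.92e-06), and *Kcnip2* 1.82 ± 0.21 and 1.06 ± 0.22 (adjusted p 2.41e-07 and 0.00132). Likewise *Fgf11*, *Kcnc4*, *Tuba8*, *Gpx3*, *Scg2* and *Stxbp6* were called higher against each. *Kcnip1*, *Kcna1*, *Kcna2*, *Kcnq3*, *Rgs6*, *Cpne4*, *Ret*, *Rph3a*, *Pcdh9*, *Cacng2*, *Nefl* and *Nefh* were called lower against each. *Kcna1*, for example, was at 268, 276 and 271 CPM in cluster 1 and 271, 215 and 298 CPM in cluster 5, with cluster 3 below both on every plate.

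In other genes the difference from pooled group I went with the level in cluster 1. Whether the contrasts with clusters 1 and 5 differed from each other was not tested. *Calb2* was at 187, 219.6 and 429 CPM there and at 3.3, 2.22 and 0 CPM in cluster 5, where cluster 3 did not differ detectably (adjusted p 0.743). *Calb1*, at 123, 123 and 63.1 CPM in cluster 1 and 16.5, 11.1 and 11.7 CPM in cluster 5, and *Maf*, at 199, 219.6 and 196 and 69.3, 35.5 and 64.3 CPM, had the same arrangement. *Ntrk3*, *Slc17a6* and *Nefm* were likewise called against cluster 1 and not cluster 5. *Ina* was scarce in cluster 1 (6.68, 11.6 and 31.5 CPM) and at 271, 166 and 199 CPM in cluster 5, close to cluster 3 (adjusted p 0.182), and *Robo2* and *Cbln2* were also called only against cluster 1.

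Cluster 5 supplied a further set. *Fxyd7* was at 165, 106 and 356 CPM in cluster 5 and 13.4, 6.46 and 18.9 CPM in cluster 1, and *Id3* at 109, 129 and 134 and 8.01, 2.58 and 0 CPM. Neither differed detectably between clusters 3 and 1 (adjusted p 0.273 and 0.446). *Pou4f3* was at 59.4, 57.7 and 46.7 CPM in cluster 5 and 4.16, 1.71 and 0 CPM in cluster 3. *Cpne6* lay between, at 91.6, 106 and 121 CPM in cluster 3, above cluster 1 (40.1, 72.3 and 88.3 CPM, adjusted p 0.0108) and below cluster 5 (485, 501 and 427 CPM, adjusted p 8.17e-12). *Heg1* was at 149.9, 83.6 and 94.9 CPM in cluster 3, 106, 73.6 and 44.2 CPM in cluster 1 and 3.3, 0 and 0 CPM in cluster 5.

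The genes that the study named for the clusters were chosen on these neurons, so their direction is not independent evidence. Of 6 for group Ia, 3 could be tested and *Calb1*, *Calb2* and *Slc17a6* were lower. *Hpse*, which was too low for the test, had 1 UMI in cluster 3 and 41 in group I (ratio of CPM 24.2, 4.11 to 979). *Colq* had 3 against 20 (3.94, 1.17 to 20.7), and *Agpat4* was at 2.78, 1.71 and 4.31 against 36.1, 14.7 and 15.2 CPM. Of 7 for group Ib, *Pcdh17* and *Pou4f3* were lower and *Pcdh8*, at 6.94, 25.6 and 38.8 against 20.9, 31.0 and 33.4 CPM, was not called. DESeq2 gave the first 2 no adjusted p. *Chad* had 0 UMIs in cluster 3 and 40 in group I, at least 7.87-fold lower. *Npy1r* had 1 against 37 (21.8, 3.68 to 886) and *Grin3a* 1 against 15 (8.85, 1.36 to 373). *Itga2* was at 0 in cluster 3 and at 1.9, 3.27 and 3.03 CPM in group I. *Nxph1* and *Kcnip2*, named for clusters 2 to 4, and *Heg1*, named for clusters 1 to 3, were higher. *Tac1*, which encodes substance P, was at 11.1, 5.12 and 17.3 CPM in cluster 3 and 1.9, 0 and 63.7 CPM in group I, where 1 neuron held 91.3% of its UMIs. *Cdh13* and *Fam196a* reached at most 5.55 and 3.41 CPM.

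On adult replicates 1 and 2, plates not used above, the putative group II neurons fell mostly in clusters 2 and 4. Cluster 2 held 4 neurons on replicate 1 and 11 on replicate 2, and cluster 4 held 19 and 9, and both were pooled. Cluster 3 held 1 and 2, which were left out, and group I held 22 on each, so cluster and set of plates cannot be told apart. There 770 of 7955 genes were called (9.68%). Of the 502 genes called for cluster 3, 497 were tested on these plates, 464 had the same sign (93.4%) and 254 were called in the same direction (51.1%, or 33.0% of the 770), 126 higher and 128 lower. The same-sign share over all genes tested in both was not computed. The authors clustered the adult neurons of all plates together, so this agreement is not independent evidence. *Nxph1* (3.92 ± 0.44), *Kcnip2* (1.71 ± 0.24), *Kcnip1* (-1.99 ± 0.22) and *Kcna2* (-0.69 ± 0.11) had log2 differences close to those of cluster 3. *Svop* was the 1 gene called in opposite directions. It stood at 21.9 and 9.65 CPM in pooled clusters 2 and 4 on replicates 1 and 2, and at 41.8 and 45.9 CPM in group I (log2 difference -1.42 ± 0.38, adjusted p 0.0038).

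A test of the difference between both contrasts, each within its own plates, called 33 of 8027 genes (0.411%), 13 with the higher difference in cluster 3. *Sv2a* was higher in cluster 3, and on replicates 1 and 2 it was lower in these pooled clusters on both plates without being called (adjusted p 0.408), at 132 and 154 against 152 and 202 CPM. *Nefl* was lower in both and less so in cluster 3, since pooled clusters 2 and 4 had 3024 and 3957 CPM against 8267 and 8517 CPM. *Cbln2* differed more on replicates 1 and 2 (3.67 ± 0.19 against 1.87 ± 0.24), which did not pass the test (adjusted p 0.0533). Leaving out replicates 1, 2, 3, 4 or 5 gave 61, 99, 20, 24 or 97 calls, and DESeq2 gave 2.

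**Figure D5:**
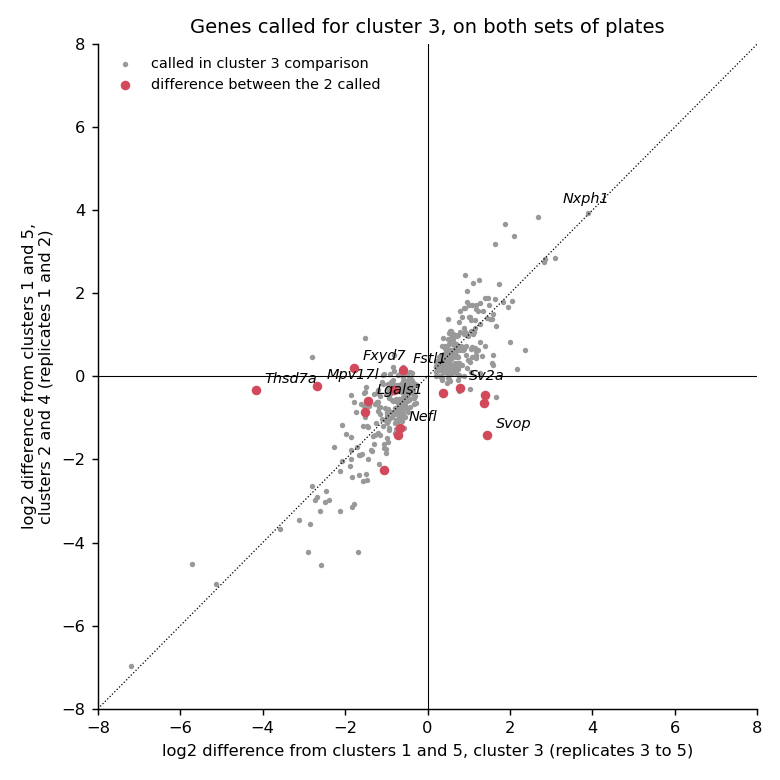
Log2 difference of cluster 3 from group I on replicates 3 to 5 (x axis) against that of clusters 2 and 4 from group I on replicates 1 and 2 (y axis) for the called genes tested in both, with red for genes whose difference between the contrasts passed the test and a dotted line of equality. Most points, 464 of 497, lie in the quadrants of equal sign, and Svop lies apart at 1.44 and -1.42. The clusters on both axes come from the same clustering of the adult neurons.

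The e14.5 neurons came from *TrkC:tdTomato* mice, whereas p0 and p12 neurons were sorted with the same reporter as the adult ones. The study proposes that e14.5 clusters 3 and 4 are not proprioceptors. Across stages, *Nxph1* had 0 UMIs in the 4 clusters of e14.5 and in p0 clusters 1 and 3, and 1.65 CPM in p0 cluster 2. At p12 it stood at 41.9, 53.8 and 60.5 CPM in clusters 1, 3 and 4 and at 3.29 and 15.3 CPM in clusters 2 and 5. In the adult it was at 47.3 and 70.0 CPM in clusters 2 and 4, near the 61.8 CPM of cluster 3. *Svop* was at 6.45 and 23.3 CPM in adult clusters 2 and 4, each taken alone. *Kcnip1* was at 83.8 and 20.0 CPM there, against 65.5 CPM in cluster 3 and 247 and 149.9 CPM in clusters 1 and 5. These are pooled levels over plates of each stage, stages do not share plates, and each stage has its own cluster numbers. Each p12 cluster lay on 2 of the 4 p12 plates, so p12 clusters need not share plates either. In e14.5 cluster 4, *Svop* with a UMI in 1 of 6 neurons stood at 21.6 CPM, so 0 UMIs there measures little.

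Over the 76 neurons, levels centred per plate and correlated with *Nxph1* ranked *Cbln2* first (Pearson's r = 0.58 across neurons), then *D930028M14Rik* (0.56), *Malat1* (0.52), *Ina* (0.51), *Dhrs7* (0.51), *Aldoa*, *Eno1* and *Zwint* (0.48 each), *Auh* (0.47) and *Atp6v1g2* (0.46). *Rph3a* (-0.61) and *Cpne4* (-0.60) were lowest. The points share plates and clusters, and *Nxph1* also ran against depth (r = -0.45), so these values are a description. Within the 38 cluster 3 neurons alone *Cbln2* kept 0.59, while *Ina* fell to 0.02 and *Malat1* to 0.19.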

How the data were processed

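Single tdTomato+ neurons were sorted into plates of 96 wells and sequenced by Plate-seq. The authors aligned reads to mm10 (GRCm38) with STAR and deposited UMI counts per gene and well, whole numbers without normalization, with an annotation giving each kept neuron's plate and cluster. The column that names plates was matched to the labels, and 0 columns belonged to no sample.

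UMIs were summed per group and plate and CPM computed from these sums. edgeR 4.0.16 (R 4.3.3) then fitted them after TMM scaling and filterByExpr (robust quasi-likelihood F-test, plate as a block, Benjamini-Hochberg adjusted p under 0.05 over all genes tested), and adjusted p-values with no tool named are from it. The plate pairs the groups: their deviations from the group means correlated at 0.19, 0.18 and 0.27 over 6682 genes. On data simulated at 6682 genes with known changes in the main comparison, 70.0% of 2-fold and 92.2% of 4-fold changes were recovered. Those data held no plate effect beyond library size, so they do not measure recovery under the plate differences seen here. Alternatives used DESeq2 1.42.0 and limma 3.58.1 (log2 of mean CPM + 1), and thinning to 10000 UMIs per neuron. Python 3.11.15, pandas 2.3.3, numpy 2.4.6, scipy 1.17.1 and matplotlib 3.10.9 were used.

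The groups and the 37 gene lists were chosen with earlier results of these data known. Named genes are the given markers, the 15 called genes that rose most and the 15 that fell most among those that moved alike on all 3 plates (predicted genes skipped), called list members, genes the study names for a cluster, and genes called in the test between contrasts (4 per direction, by smallest p, where over 12 were called). Values of *Kcnip3*, *Piezo2*, *Scn10a*, *Mafa* and *Cdh19* fall outside this rule or serve as checks. Results for some named genes are not reported here.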

Additional observations from a re-analysis of the deposited data

Results flagged for a closer look

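In 11 named genes, of 33 called, the difference from group I itself differed between cluster 3 on replicates 3 to 5 and clusters 2 and 4 on replicates 1 and 2, by the interaction test in edgeR's quasi-likelihood fit. Values are the log2 difference of cluster 3 from group I minus that of clusters 2 and 4. The set of plates and the cluster change together and cannot be told apart.

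*Svop* had the value 2.85 ± 0.42 (adjusted p 1.92e-05), which was 1.87 (adjusted p 0.555) without the single replicate 4 neuron. *Dhdh*, a dehydrogenase gene, had 2.78 ± 0.38 (adjusted p 4.44e-06). That same neuron held 49.1% of its cluster 3 UMIs, and without it the plate fell from 129.6 to 45.0 CPM. *Sv2a* (1.07 ± 0.21), *Nefl* (0.57 ± 0.10) and *Ctnnbl1* (1.44 ± 0.24) were also positive. *Nefl* was lower than in group I in both contrasts, at -0.68 and -1.25.

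The negative values were -3.83 ± 0.90 for *Thsd7a*, -2.43 ± 0.50 for *Mpv17l*, -1.99 ± 0.32 for *Fxyd7*, -1.64 ± 0.32 for *Atpaf2*, -0.84 ± 0.13 for *Lgals1* and -0.73 ± 0.11 for *Fstl1*. *Thsd7a* rested on 2 UMIs in cluster 3, and *Mpv17l* was lower than in group I there (-2.68). Neither was called on replicates 1 and 2 (-0.33 and -0.24). *Lgals1*, encoding galectin 1, was at 309.6, 471 and 552 CPM in cluster 3 and 874, 1456 and 1268 CPM in group I. *Fstl1* was at 793, 967 and 979 against 1261, 1408 and 1529 CPM there, and at 4895 and 4401 against 3963 and 4641 CPM on replicates 1 and 2, where its level was several times higher in both groups. *Atpaf2* had log2 differences of 0.65 (not called) and 2.29 in the respective contrasts.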

How the results depend on the processing

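Among genes selected by their call, directions held more firmly than counts. All alternatives reuse the same neurons, so such genes would mostly keep their sign. Under 12 alternatives, 94 of the 95 named and called genes kept their sign wherever tested, and 24 stayed called wherever tested. For cluster 3 against group I (502 genes) DESeq2 called 94, thinned neurons 99 of 2472 tested, limma on mean CPM 153, and neurons of 30000 to 60000 UMIs, added after seeing the data, 59 of 3363, where 359 of the 368 called genes tested kept their sign. Leaving out each replicate gave 153 to 784. With no filter on low counts the split was 203 higher and 354 lower (median -0.10) and with limma 62 and 91. Clusters 1 and 5 weighted equally gave 429 and DESeq2's size factors 505. The sequencing depth limits genes below a few CPM.

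The plate pairs the samples, and with no replicate block the count was 163, all but 1 of them among the 502. Against cluster 1 (446) no replicate block gave 207, DESeq2 126, thinning 65 and leave-one-out 107 to 540. Against cluster 5 (420) the values were 260, 154, 49 and 147 to 499. For clusters 2 and 4 (770) they were 477, 78 and 283, and leaving out a replicate was not run there because no residual degrees of freedom remain. For the test between contrasts (33), DESeq2 gave 2 (108 at an unadjusted p under 0.05), no filter 51, thinning 9 and leave-one-out 20 to 99. Fewer genes are tested in thinned sums, and the cause of the other losses was not tested.

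Signs turned for *Calm2* (-0.017 in neurons of 30000 to 60000 UMIs), and, among genes not called, for *Pcdh8* (0.22) and *Ctnnbl1* (0.032) with equal weights, *Dhdh* (-0.12 to 0.71 with a replicate left out, the lowest without replicate 4, and -0.39 without the neuron with most *Svop*) and *Etv1* (0.0049 with DESeq2, -0.079 to 0.072 with a replicate left out, 0.024 with equal weights and 0.0041 without that neuron). The mean UMI difference per neuron was -28525 to -24389 with a replicate left out.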

Other observations

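The 3 neurons of cluster 3 on replicates 1 and 2, which entered no comparison, had 17435, 47954 and 15156 UMIs. Their *Nxph1* was at 57.4, 20.9 and 0 CPM and their *Kcnip2* at 57.4, 229 and 132 CPM. *Calb2* and *Pou4f3* had 0 UMIs in all 3. *Svop* was at 172 CPM in the first and at 0 in the others.

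The 27 kept neurons of replicates 3 to 5 without a numbered cluster had *Nxph1* at 30.9, 17.4 and 73.6 CPM, between cluster 3 and group I on replicates 3 and 4 and above the cluster 3 sum on replicate 5. Their *Kcnip1* was at 101, 139 and 30.3 CPM and their *Kcnip2* at 72.2, 55.6 and 117 CPM.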
